A study of Mus musculus with 8 samples.

Results

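The acute phase plasma proteins are secreted liver proteins whose transcripts rise or fall with inflammation, and 10 of their genes were followed in mouse livers that lack the N-terminus of the Lamin B receptor (LBR): Saa1, Saa2, Saa3, Saa4, Orm1, Orm2, Orm3, Hp, Apcs and Lcn2. They were chosen by name, and each was matched to its Ensembl identifier in the table of counts, so they make up 10 of the 49671 gene IDs. All 10 passed the filter on low counts, which kept 13117 genes. The series holds 8 liver libraries from post-weaning mice labelled C57BL/6 (C57BL/6N in the description of the study), 2 for each genotype (WT or NT-KO) in each sex. NT-KO animals are homozygous for a deletion around the start codon of Lbr that removes part of exon 2 and of the intron before it, and the line descends from 1 founder male crossed to C57BL/6N females. The labels name no treatment for any group and give the age only as post weaning. The question put to the libraries was which genes differ between NT-KO and WT liver in each sex.

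In the acute phase response, macrophages and other cells release interleukin-1, interleukin-6 and TNF, and hepatocytes answer through the gp130 receptor and STAT3, through NF-kB and through the C/EBP factors. The positive acute phase genes then rise and the negative ones, such as Alb, fall. Saa1 and Saa2 encode the serum amyloid A proteins that associate with high density lipoprotein and have the widest inducible range in mouse liver. Saa4 encodes the constitutive serum amyloid A of the liver, and Saa3 is made mostly by macrophages and adipocytes. Orm1, Orm2 and Orm3 encode orosomucoids (alpha-1-acid glycoproteins), Hp encodes haptoglobin, which binds free haemoglobin, Apcs encodes serum amyloid P component, the mouse pentraxin that responds most to inflammation, and Lcn2 encodes lipocalin 2, which binds bacterial siderophores.

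On GRCm38 the 4 Saa genes lie close together on chromosome 7. Saa3 spans chr7:46711998-46715700, Saa4 chr7:46727998-46732603 and Saa1 chr7:46740497-46742980, all on the minus strand, and Saa2 spans chr7:46751790-46754313 on the plus strand. Orm1 (chr4:63344560-63348163), Orm3 (chr4:63356162-63359511) and Orm2 (chr4:63362449-63365878) follow each other on the plus strand of chromosome 4. Hp lies at chr8:109575128-109579172, Apcs at chr1:172893961-172895041 and Lcn2 at chr2:32384633-32388252, all on the minus strand. Every count is over the exons of the whole gene. Of the 50-base stretches of the Saa1 transcripts 31.1% also occur in Saa2, and of those of Orm1 20.4% also occur in Orm2, so a read from these stretches cannot be placed on 1 gene. How such reads were counted is not given in the sources used here. Values of Saa1 and Saa2, and of Orm1 and Orm2, are therefore uncertain as single genes, and their sums are given beside them. Hp, Apcs and Lcn2 share none of their stretches with another of the 10 genes.

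Promoter sequences (RefSeq, GRCm38.p6) were at hand for 8 of the 10 genes, and not for Orm1 and Hp. The 250 bases before each start were searched on both strands for 4 motifs of acute phase regulators: the STAT motif TTCNNNGAA, the interleukin-6 element CTGGGAA, the C/EBP motif TTNNGNAA and the NF-kB motif GGGNNTTTC. The C/EBP motif occurred in 7 of the 8, with 13 matches, against 36.8% of all 32817 promoters of the table. The interleukin-6 element occurred in Apcs only, with 2 matches, against 9.1% of all promoters, and the STAT motif also occurred in Apcs only, against 7.01%. The NF-kB motif was in none of the 8, against 3.72%. No match overlapped another. A match is a run of letters and not a measured site, and sites spelled otherwise were not searched for. The promoters of Saa1 and Saa2 and of Orm2 and Orm3, pairs of close copies, and that of Apcs, the only 1 with the interleukin-6 element, are shown 5′ to 3′ from 200 to 45 bases before the start, with matches in capitals. The stretches shown are chr7:46743025-46743180 (minus strand) for Saa1 and chr7:46751633-46751788 (plus strand) for Saa2. The capitals mark 2 C/EBP matches in Saa1 and 1 in Saa2. Those of Orm2 (chr4:63362249-63362404) and Orm3 (chr4:63355958-63356113), both on the plus strand, hold 2 C/EBP matches in Orm2 and 1 in Orm3. Over the 250 bases searched, aligned without gaps, Saa1 and Saa2 were identical at 197 of 249 bases (79.1%). Orm2 and Orm3 were identical there at 168 of 249 bases (67.5%). Identity was not taken over the shown stretches alone. In Apcs (chr1:172895099-172895254, minus strand) the capitals mark the 2 interleukin-6 elements, both read from the other strand.
Saa1: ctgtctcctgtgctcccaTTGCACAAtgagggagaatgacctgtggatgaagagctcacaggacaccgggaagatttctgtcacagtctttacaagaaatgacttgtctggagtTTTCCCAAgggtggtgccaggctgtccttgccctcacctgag
Saa2: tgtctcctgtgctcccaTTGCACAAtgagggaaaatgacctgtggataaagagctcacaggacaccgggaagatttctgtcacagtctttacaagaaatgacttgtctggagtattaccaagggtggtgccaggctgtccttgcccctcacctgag
Orm2: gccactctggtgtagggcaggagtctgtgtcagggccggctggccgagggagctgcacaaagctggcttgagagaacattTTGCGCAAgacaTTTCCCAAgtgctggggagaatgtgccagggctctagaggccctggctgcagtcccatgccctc
Orm3: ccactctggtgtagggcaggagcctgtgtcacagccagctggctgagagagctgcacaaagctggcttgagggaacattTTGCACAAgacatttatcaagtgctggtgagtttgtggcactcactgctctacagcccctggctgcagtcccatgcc
Apcs: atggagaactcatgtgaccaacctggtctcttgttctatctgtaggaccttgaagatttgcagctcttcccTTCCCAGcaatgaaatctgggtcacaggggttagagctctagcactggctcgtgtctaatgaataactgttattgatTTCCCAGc

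The libraries held between 45020377 and 64396291 counts, so 1 count is worth 0.0147 to 0.0236 CPM (counts scaled to the library size, here after TMM). Reads of Lbr itself were more abundant in NT-KO than in WT, with 7.99 and 6.54 CPM in WT males, 12.8 and 13.6 CPM in NT-KO males, 7.43 and 6.96 CPM in WT females and 13.1 and 14 CPM in NT-KO females. The genotypes did not overlap in either sex, where both female NT-KO libraries lay above both female WT libraries for 12.2% of all genes. The log2 fold change of Lbr was 0.86 in males and 0.91 in females. By the threshold given below Lbr was not called in either sex. Since the gene count of Lbr also takes in exons outside the deletion, it does not measure the loss of the N-terminus. The hepatocyte markers Alb, with 51858 to 83426 CPM, and Ttr, with 4946 to 7502 CPM, were abundant in every library. Male WT replicate 2 stood apart in the acute phase genes. It was the highest of the 8 libraries for 8 of the 10 genes, against 18.2% of all genes tested, and all 10 were over 1 log2 above male WT replicate 1, against 2.75% of all genes. The 10 genes together took 1.19% of its counts and 0.206% to 0.501% of those of the other 7. The comparisons that rest on it are given with and without it.

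**Figure D1:**
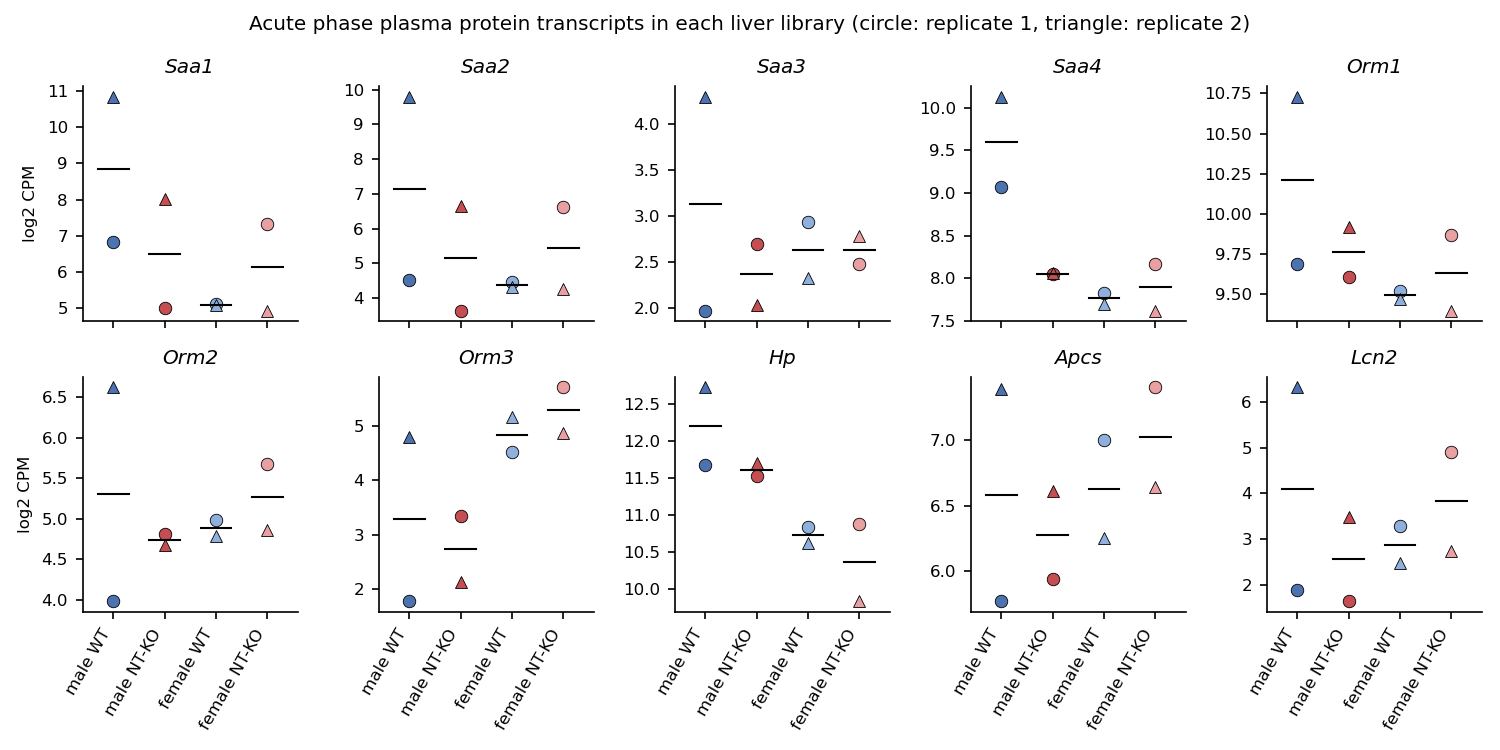
The log2 CPM of each of the 10 genes (vertical axis, scaled per gene) is plotted for the 4 groups (horizontal axis), with 1 point per library and a bar at the mean of the 2 libraries. Male WT replicate 2, the upper triangle at the left of each panel, is the highest point for every gene other than Orm3 and Apcs, and the 2 female WT libraries lie close together for Saa1, Saa2, Saa4, Orm1 and Orm2.

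Compared per kb of exon, the order of the genes by their median over the 8 libraries was Hp (median 1499 RPKM, range 568 to 4201), Orm1 (1035, 871 to 2187), Saa4 (127, 93.7 to 536), Apcs (102, 56.2 to 175), Orm2 (36.8, 20.4 to 127), Orm3 (32.6, 4.41 to 67), Saa1 (29.9, 12.3 to 740), Saa2 (8.87, 4.93 to 354), Lcn2 (3.13, 1.19 to 30.3) and Saa3 (2.31, 1.49 to 7.55). Neighbours in this order overlapped in range at every step other than that from Orm1 to Saa4. Compared within each library, Apcs also lay above Orm2, Saa1 above Saa2 and Saa2 above Lcn2 in every library. Each of the other steps was reversed in at least 1 library. Exon lengths include the longer isoforms of Saa1 and Saa2.

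The inducible serum amyloid A genes had the widest range. Saa1 was at 114 and 1834 CPM in WT males, 31.9 and 260 CPM in NT-KO males, 34.4 and 34 CPM in WT females and 162 and 30.6 CPM in NT-KO females. Saa2 was at 22.8 and 891 CPM in WT males, 12.4 and 99.9 CPM in NT-KO males, 21.9 and 19.8 CPM in WT females and 97.6 and 19 CPM in NT-KO females. For both genes the same 3 libraries were high, male WT replicate 2 first, then male NT-KO replicate 2 and female NT-KO replicate 1. Male WT replicate 2 lay 53.3-fold above the median of the other 7 libraries in Saa1 and 40.7-fold in Saa2. Saa1 counts were 2.06 to 5 times those of Saa2 in males and 1.57 to 1.72 times in females. Their sum ranged from 44.4 to 2725 CPM in males and from 49.6 to 259 CPM in females.

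Saa4, the constitutive member, varied less. It was at 537 and 1123 CPM in WT males, 264 and 267 CPM in NT-KO males, 227 and 208 CPM in WT females and 288 and 196 CPM in NT-KO females. Both male WT libraries lay above all of the other 6, which ranged from 196 to 288 CPM. Saa3 was low, between 3.88 and 7.57 CPM in 7 libraries and 19.7 CPM in male WT replicate 2, and the female genotypes overlapped. In 5 libraries Saa4 made up 77.6% to 83.9% of the CPM of the 4 Saa genes, while its share was 29% in male WT replicate 2, 42.4% in male NT-KO replicate 2 and 52.1% in female NT-KO replicate 1.

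Of the orosomucoid genes, Orm1 made up 90.1% to 97.7% of the summed CPM. It was at 824 and 1695 CPM in WT males, 781 and 968 CPM in NT-KO males, 736 and 709 CPM in WT females and 934 and 675 CPM in NT-KO females. Apart from male WT replicate 2 its range was 675 to 968 CPM, a narrow one for these genes. Orm2 was at 15.8 and 98.5 CPM in WT males, 28 and 25.5 CPM in NT-KO males, 31.5 and 27.6 CPM in WT females and 51 and 29.1 CPM in NT-KO females. Orm3 was at 3.41 and 27.7 CPM in WT males, 10.2 and 4.35 CPM in NT-KO males, 22.7 and 35.5 CPM in WT females and 51.8 and 29 CPM in NT-KO females. Orm3 was thus between 3.41 and 10.2 CPM in 3 male libraries, and the fourth, male WT replicate 2, lay within the female range of 22.7 to 51.8 CPM. The counts of Orm3 were 0.171 to 0.364 times those of Orm2 in the 4 male libraries and 0.721 to 1.28 times in the 4 female libraries.

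Hp was at 3259 and 6746 CPM in WT males, 2932 and 3331 CPM in NT-KO males, 1829 and 1573 CPM in WT females and 1884 and 912 CPM in NT-KO females. Every female library lay below every male library. Apcs was at 54.5 and 168 CPM in WT males, 61.6 and 97.5 CPM in NT-KO males, 128 and 76.1 CPM in WT females and 169 and 99.8 CPM in NT-KO females, and the genotypes overlapped in both sexes. Lcn2 was at 3.69 and 79.5 CPM in WT males, 3.11 and 11.2 CPM in NT-KO males, 9.73 and 5.54 CPM in WT females and 30 and 6.67 CPM in NT-KO females. The 3 highest libraries for Lcn2 were those highest for Saa1 and Saa2, with female NT-KO replicate 1 above male NT-KO replicate 2.

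In males, all 10 genes had a lower mean in NT-KO than in WT and none passed the threshold. The median log2 fold change was -1.13, against 0.0121 over all 13117 genes. A gene was called where edgeR's quasi-likelihood test gave a Benjamini-Hochberg FDR no higher than 0.05 and the change exceeded 1 on the log2 scale. In males 0 of the 10 were called, where 0.0152% of all genes were, and 1 of the 10 had an unadjusted p under 0.05, where 11.5% of all genes had. That gene was Saa4, which was 3.12-fold lower in NT-KO (log2 fold change -1.64, SE 0.345, FDR 0.188). It was also the only 1 of the 10 whose male NT-KO libraries both lay below both WT libraries, which held for 19.2% of all genes. With edgeR's likelihood ratio test, the test of the study, Saa4 alone was called (FDR 0.00291), where 1.56% of all genes were, and DESeq2 gave it an adjusted p of 6.44e-05. By the quasi-likelihood test Saa4 was called where male WT replicate 1 was left out, with a log2 fold change of -2.08, and where the filter on low counts was dropped.

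The size of the other male differences rested on male WT replicate 2. The log2 fold change of Saa1 was -2.74 (SE 1.35), that of Saa2 -3.02 (SE 1.52) and that of Lcn2 -2.53 (SE 1.26), with FDRs of 0.477, 0.484 and 0.479. Without male WT replicate 2 they were 0.36, 1.30 and 0.96. The log2 fold changes of Saa3, Orm1, Orm2, Orm3 and Apcs lay between -1.16 and -0.48 with all libraries, and without this library between 0.08 and 1.09. Hp moved from -0.68 (SE 0.41) to -0.06. The value of Saa4 without it was -1.01 with an FDR of 0.423, so Saa4 and Hp were the 2 genes of 10 that stayed lower, and the median turned to 0.49. In that fit the WT mean of males is 1 library, which is taken to vary as the other groups do. Summed, Saa1 with Saa2 had a log2 fold change of -2.82 (SE 1.39, FDR 0.476) and the 3 Orm genes one of -0.55 (SE 0.35, FDR 0.586). These sums also turned without male WT replicate 2, to 0.56 and 0.11.

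In females, 8 of the 10 genes had a higher mean in NT-KO and 2 a lower one, and none passed. The median log2 fold change was 0.42, against 0.00117 over all genes. By the same test 0 of 10 were called, where 0.00762% of all genes were, and 0 of 10 had an unadjusted p under 0.05, where 1.55% of all genes had. DESeq2 and the likelihood ratio test also called 0, where they called 5 and 11 of all genes. The largest values were those of Saa1 (1.49, SE 1.29), Saa2 (1.48, SE 1.44) and Lcn2 (1.27, SE 1.21), each with an FDR of 1. For none of the 10 did both female NT-KO libraries lie above both female WT libraries, which held for 12.2% of all genes. The values of Saa1, Saa2 and Lcn2 rested on female NT-KO replicate 1, which was 5.29-fold above replicate 2 in Saa1, 5.13-fold in Saa2 and 4.51-fold in Lcn2. Without it the log2 fold changes were -0.16, -0.13 and -0.19. The 2 female WT libraries differed by no more than 1.16-fold in Saa1, Saa2, Saa4, Orm1, Orm2 and Hp, and by 1.53-fold to 1.76-fold in Saa3, Orm3, Apcs and Lcn2.

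**Figure D2:**
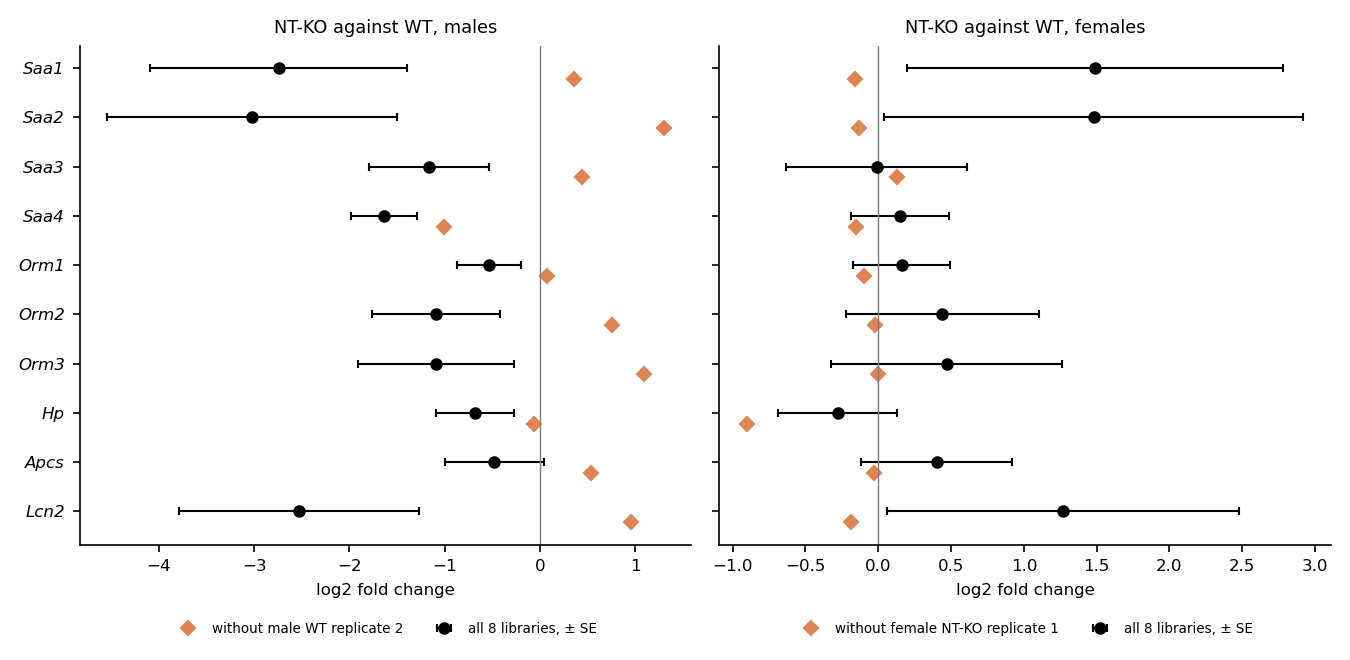
The log2 fold change of NT-KO against WT (horizontal axis) is drawn for each gene in males (left) and females (right), as black points with the standard error of the edgeR fit to all 8 libraries. Orange diamonds give the value without male WT replicate 2 (left) or without female NT-KO replicate 1 (right): in males 8 of 10 genes cross 0, and Saa4 stays at -1.01.

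The male and female effects were set against each other in the same fit. The NT-KO effect was higher in females than in males for all 10 genes, with a median difference of 1.55 on the log2 scale. None passed at an FDR of at most 0.05, where 0.0152% of all genes did, and 1 of 10 had an unadjusted p under 0.05, where 7.2% of all genes had. For Saa4 the difference was 1.80 (SE 0.48, FDR 0.573), and 1.17 without male WT replicate 2. DESeq2 gave Saa4 an adjusted p of 0.0197. Without male WT replicate 2, 5 genes had a positive and 5 a negative difference, with a median of -0.04. Averaged over both sexes, all 10 genes were lower in NT-KO (median -0.53, 0 called, against 0.0152% of all genes), and 8 of 10 were higher without this library. Saa4 again had the only unadjusted p under 0.05, where 5.42% of all genes had one, with -0.74 (SE 0.239, FDR 0.827) and, without male WT replicate 2, -0.43.

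Hp and Saa4 were lower in females than in males, averaged over both genotypes. For Saa4 the WT males, at 537 and 1123 CPM, lay above the female range of 196 to 288 CPM. The NT-KO males, at 264 and 267 CPM, were within it. The NT-KO effect on Saa4 did not differ between the sexes by the quasi-likelihood test (FDR 0.573). Hp was 2.57-fold lower (log2 fold change -1.36, SE 0.294, FDR 0.0305), with means of 4067 ± 1794 CPM in males and 1550 ± 446 CPM in females (SD, n = 4 each). Saa4 was 2.05-fold lower (-1.03, SE 0.24, FDR 0.0387), with 548 ± 404 CPM in males and 230 ± 41 CPM in females (SD, n = 4 each). These 2 of 10 were called, where 4.19% of all genes were, and 4 of 10 had an unadjusted p under 0.05, where 26.9% of all genes had. Of the 550 genes called, 294 were higher in females. With library size alone in place of TMM these were 423 of 648, the median of all genes moved from -0.01 to 0.12, and Saa4 was no longer called (-0.90). Hp was the only 1 of the 10 with all females below all males, which held for 7.6% of all genes. Without male WT replicate 2 the values were -1.05 for Hp (FDR 0.0662) and -0.72 for Saa4 (FDR 0.0648), so neither passed. The 2 calls were also made without male WT replicate 1, Hp alone was called without male NT-KO replicate 1 or female NT-KO replicate 1, and neither was called where male NT-KO replicate 2, female NT-KO replicate 2, female WT replicate 1 or female WT replicate 2 was left out, although both stayed lower in females.

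Orm3 went the other way. It was 3.23-fold higher in females (log2 fold change 1.69, SE 0.581, FDR 0.112) with 11.4 ± 11.3 CPM in males and 34.8 ± 12.5 CPM in females (SD, n = 4 each), and did not pass with all libraries. Without male WT replicate 2 its log2 fold change was 2.79 and it passed with an FDR of 0.00944. Orm1 (-0.46, SE 0.237) and Orm2 (-0.18, SE 0.468) did not pass. Saa1 was at -2.72 (SE 0.951, FDR 0.117) with all libraries and at -1.17 without this one, and Saa2 at -2.20 (SE 1.04, FDR 0.218) and -0.04. Apcs, Lcn2 and Saa3 were at 0.32, -0.55 and -0.34 with all libraries and at 0.83, 1.20 and 0.46 without it. Between WT females and WT males, in the fit to all 8 libraries, 9 of 10 genes were lower in females (median -1.25). Without male WT replicate 2 this was 5 of 10 (median 0.28). With all libraries, 5 of 10 had an unadjusted p under 0.05, where 27% of all genes had. A fit to the WT libraries alone called 0 of the 10, and 508 of all genes. The fit to all 8 libraries called 4.68% of all genes (335 of 614 higher in females, or 677 of 911 with library size alone). Of the 10 it called Saa4 alone, at -1.93 (SE 0.348, FDR 0.022). Without male WT replicate 2 this value was -1.30 (FDR 0.0579), and Saa4 was also not called with female WT replicate 1 or female WT replicate 2 left out.

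**Figure D3:**
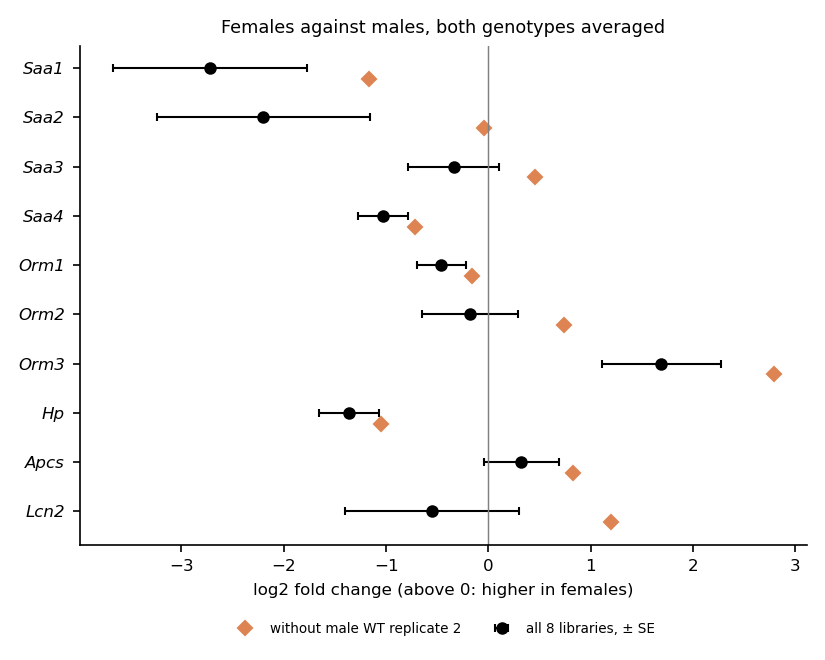
The log2 fold change of females against males over both genotypes (horizontal axis, above 0 is higher in females) is drawn for each gene as a black point with the standard error of the edgeR fit, and as an orange diamond without male WT replicate 2. Hp and Saa4 lie below 0 in both, Orm3 lies above 0 in both, and Lcn2, Orm2 and Saa3 change side.

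The signals and receptors upstream of these genes were read from lists of related genes, described here by counts and medians. Of 10 cytokine ligands 3 were abundant enough to test, and Il6 was at 0.11 CPM or less in every library and Tnf at 0.351 CPM or less. Of 11 receptor genes, 2 were higher and 9 lower in male NT-KO, with a median of -0.19 and none called by either edgeR test, and without male WT replicate 2 these were 5 and 6. Il1r1, the signalling receptor of interleukin-1, had -1.39 (SE 0.508, FDR 0.364) and Lifr, a partner of gp130, -0.72 (SE 0.303, FDR 0.42). Of 21 transcription factors and feedback genes, 7 were higher and 14 lower (median -0.09), or 10 and 11 without male WT replicate 2. None was called by the quasi-likelihood test, and the likelihood ratio test called 1, Socs3 (FDR 0.0159), where it called 1.56% of all genes. Socs3, the STAT3-induced inhibitor of gp130 signalling, was at 22.1 and 18.4 CPM in WT males and between 2.7 and 7.15 CPM in the other 6 libraries. Its log2 fold change in males was -1.87 (SE 0.476, FDR 0.237) and it stayed lower without male WT replicate 2. Bcl3, an NF-kB cofactor, was at 17.7 and 41.6 CPM in WT males and at 9.6 to 17.2 CPM elsewhere, and its log2 fold change in males went from -1.03 to -0.29 without male WT replicate 2. Stat3 was at 86.9 and 114 CPM in WT males, 71 and 80.9 CPM in NT-KO males and 50.1 to 59.4 CPM in females.

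Of 22 other positive acute phase genes tested, 18 were lower and 4 higher in male NT-KO, with a median of -0.49. None was called by the quasi-likelihood test, and the likelihood ratio test called 1, Steap4 (FDR 0.00805), where it called 1.56% of all genes. Without male WT replicate 2 the median was -0.14, with 13 lower and 9 higher. The fibrinogen chain gene Fga was at 3471 and 3690 CPM in WT males, 1753 and 1890 CPM in NT-KO males and 1901 to 2423 CPM in females. Its 2 male WT libraries were close to each other and above all of the other 6, and its log2 fold change was -0.98 (SE 0.186, FDR 0.16) with all libraries and -0.93 without male WT replicate 2. Fgb and Fgg, the other fibrinogen chains, were both at -0.80 and, without this library, at -0.63 and -0.59. Steap4, a metalloreductase, was at 276 and 225 CPM in WT males and 78.2 and 126 CPM in NT-KO males (-1.30, SE 0.292, FDR 0.205, and -1.44 without this library). Serpina3n, a secreted protease inhibitor, was at -0.99 (SE 0.274, FDR 0.268) and at -0.58 without it. In females the 22 genes had a median of 0.05, with 13 higher and 9 lower. The negative acute phase genes, 12 tested, had a median of 0.10 in males (8 higher and 4 lower, or 7 and 5 without male WT replicate 2). In females it was -0.09 (3 higher, 9 lower). Male WT replicate 2 was the highest library for none of them, where it was for 18.2% of all genes. Among the 12 it was the lowest for Alb (51858 CPM), Serpina6, Gc, Pon1 and Igf1, where it was the lowest for 18% of all genes. The 10 glucocorticoid and stress targets had a median of 0.09 in males (0.39 without male WT replicate 2) and 0.07 in females, with none called in either.

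The ER chaperone list, which also holds some ER stress genes that are not chaperones, was highest in male WT replicate 2, like the acute phase genes. The 2 lists differed in other libraries. In male WT replicate 1 the median centred log2 CPM was 0.33 for the chaperone list and -0.79 for the 10 acute phase genes. In female NT-KO replicate 1 it was -0.33 and 0.66. All 18 genes of the chaperone list were lower in male NT-KO (median -1.10). By the quasi-likelihood test 14 of them had an unadjusted p under 0.05, where 11.5% of all genes had, and none was called, while the likelihood ratio test called 7, where it called 1.56% of all genes. Male WT replicate 2 was the highest library for 17 of 18. Hspa5, the main chaperone of the ER lumen, was at 898 and 2590 CPM in WT males and at 336 to 538 CPM in the other 6 libraries. Hyou1, an exchange factor of Hspa5, was at 212 and 469 CPM in WT males and at 61.4 to 104 CPM in the other 6. Creld2 and Manf, ER stress genes, had log2 fold changes of -3.76 and -2.24 in males, and -2.04 and -1.39 without male WT replicate 2. Unlike 8 of the 10 acute phase genes, 16 of 18 stayed lower without male WT replicate 2 (median -0.61). In females the median was -0.09. Their part in the acute phase values was not tested.

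**Figure D4:**
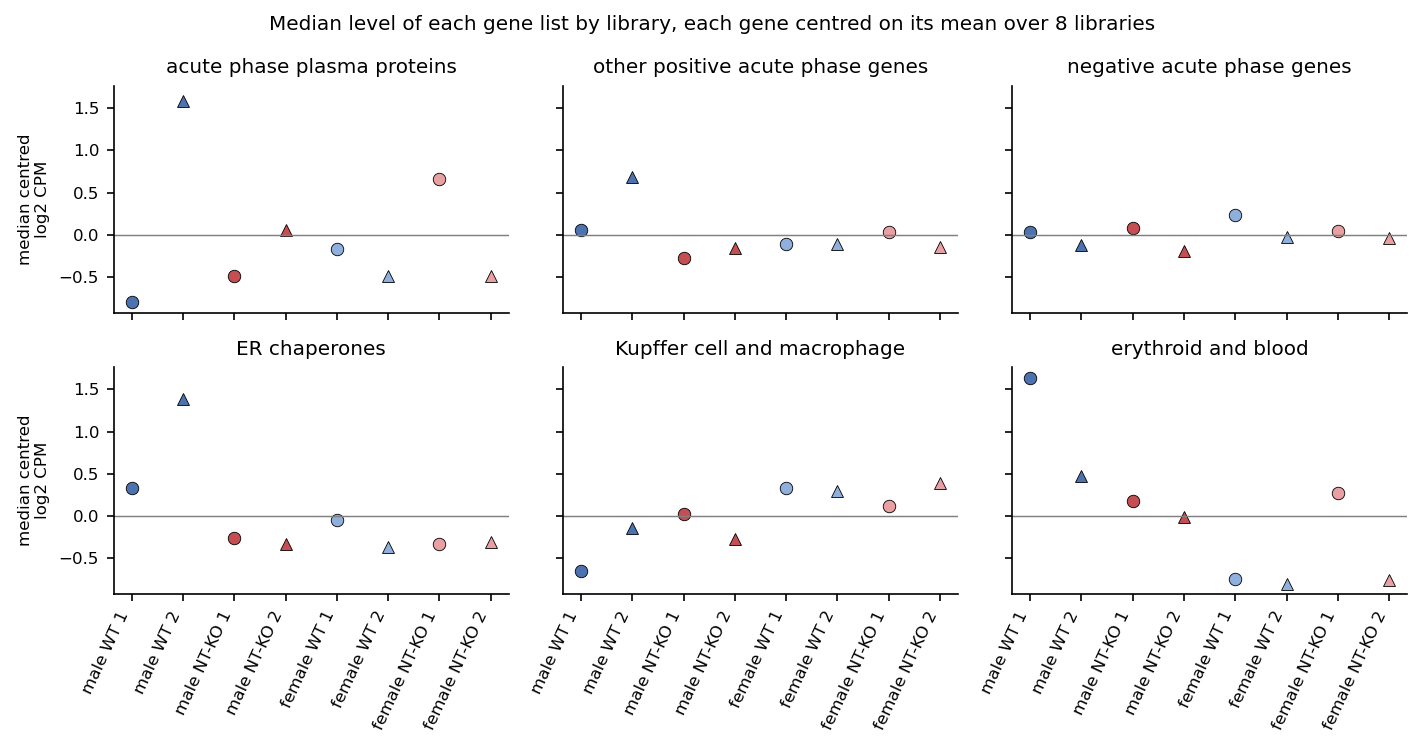
Each point is the median over a gene list, in 1 library (horizontal axis), of log2 CPM centred on each gene's mean over the 8 libraries (vertical axis), for the genes that were tested. Male WT replicate 2 is the highest library for the 10 acute phase plasma protein genes (1.59), the other positive acute phase genes (0.69) and the ER chaperones (1.39), and male WT replicate 1 is the highest for the erythroid genes (1.64) and the lowest for the Kupffer cell and macrophage genes (-0.65).

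Markers of other cells were read in the same way, and in bulk liver fewer cells of a type cannot be told apart from less RNA per cell. Of 11 neutrophil markers 3 were tested. The summed level of all 11 was 3.28 and 10.4 CPM in WT males, 5.19 and 7.24 CPM in NT-KO males, and 3.27 to 5.11 CPM in females. Ngp, Camp, Mpo and Elane, which mark immature neutrophils, were at 0.324 CPM or less in every library, and each was at 0 in at least 1. S100a8 and S100a9, at 2.62 and 4.01 CPM in male WT replicate 2, were highest in that library and next highest in male NT-KO replicate 2. The third tested marker, Csf3r, was highest in female WT replicate 2 (2.37 CPM) and lowest in male NT-KO replicate 2 (1.2 CPM). It was at 2.19 CPM in male WT replicate 2. The 10 Kupffer cell and macrophage markers summed to 200 and 304 CPM in WT males, 338 and 258 CPM in NT-KO males and 362 to 428 CPM in females. All 10 were higher in females than in males (median 0.52), with none called. In male NT-KO 9 of 10 were higher than in male WT (median 0.27). Without male WT replicate 2 this median was 0.54, set against replicate 1 alone, which had the lowest sum of the 8 libraries. The 6 erythroid genes summed to 947 and 445 CPM in WT males, 372 and 370 CPM in NT-KO males, 185 and 180 CPM in WT females and 320 and 170 CPM in NT-KO females. All 5 that were tested were lower in male NT-KO (median -1.07, none called). Without male WT replicate 2 the median was -1.54, set against replicate 1 alone, the higher of the 2 WT males. The median without replicate 1 is not reported here. All 5 were also lower in females (median -1.08), and of these Alas2, an enzyme of haem synthesis (-3.22, FDR 0.000248), and Hbb-bt, a beta globin (-1.10, FDR 0.0497), were called. Of the 5 monocyte markers 2 were tested, and both were higher in male NT-KO (median 0.52). Of the 5 adipocyte markers 1 was tested (Cidec, -0.70 in males), and Adipoq and Lep were at 0.219 CPM or less in every library, Lep at 0 in 7 of 8. The 10 hepatocyte markers had a median of -0.02 in males and -0.01 in females. The part of other cell types in the acute phase values was not tested.

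The genes whose pattern over the 8 libraries was most like the mean of the 10 were Zc3hav1 (Pearson's r 0.965), Gm8893 (0.961), Tmem41b (0.959), Gimap9 (0.947) and Gm15344 (0.937). Gm8893 was at 186 and 1356 CPM in WT males, 162 and 185 CPM in NT-KO males, 135 and 150 CPM in WT females and 449 and 179 CPM in NT-KO females. Zc3hav1 had a far smaller range, from 32.8 to 39.4 CPM. Male WT replicate 2 was the highest library for all 5, which were picked by likeness to a mean that peaks there. Without it r was 0.84, 0.82, 0.78, 0.75 and 0.64. Those most like Lcn2 were Stx3, Zc3hav1 and Rnf7 (0.949, 0.925 and 0.924). Those most like Orm2 were Epha2 (0.943), Irf9 (0.925) and Fgl1 (0.925), the last of these a secreted liver protein at 162 and 844 CPM in WT males. Those most like Hp were Tmem251 (0.992), Anapc16 (0.982) and Gm42067 (0.978). In each of these every female library lay below every male library, as in Hp, by which they were picked. These values describe 8 libraries, which include 4 groups, and they carry no test.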

How the data were processed

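Gene expression was measured by RNA-seq of 8 liver libraries (Trizol extraction, TruSeq RNA kit). Per the labels and the methods of the study, the authors trimmed reads with cutadapt, aligned them to GRCm38 with STAR 2.6.1a and counted them per gene with featureCounts. The deposited values are raw counts with no filter or normalization. Strand setting and treatment of reads with several matches are not given in the sources used here. Labels name replicates but not separate animals, so p-values measure the spread between these samples, which may be technical. No sample was left out, and 0 columns were unused.

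Counts were analysed with edgeR 4.0.16, DESeq2 1.42.0 and limma 3.58.1 in R 4.3.3. Gene names came from the GRCm38 annotation (49326 of 49671 IDs). The filter asked for 1 CPM or more in 2 libraries or more and dropped rRNA, miRNA and mitochondrial genes, which left 13117 genes. TMM factors corrected the library sizes, and 4 group means were fitted to all 8 libraries by quasi-likelihood, with Benjamini-Hochberg adjustment over all 13117 genes. Calls needed an FDR no higher than 0.05 together with a log2 fold change beyond 1 in either direction, except that differences between sexes were called by FDR alone. SE is the absolute log2 fold change divided by the square root of F. log2 CPM used a prior count of 2, and RPKM is CPM per kb of the union of exons. An exact permutation test could not go below p = 0.333 with 2 against 2 libraries. Counting error is small beside the spread of replicates: 3 counts are 0.0441 to 0.0708 CPM.

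All 10 genes are named in every comparison, or by range. Genes named from each list of related genes came from the 5 with the smallest unadjusted p in males or over both sexes. Il6, Tnf, Alb, Ttr, the negative acute phase genes lowest in male WT replicate 2, and marker genes at or near 0 were named after their values were seen. Genes with the pattern most like the mean of the 10 (5 genes), and like Orm2, Hp and Lcn2 (3 each), were named by Pearson's r, and those for Saa2 are not reported here. The 10 genes, the lists and the tests were chosen with earlier results of these data known. The model was tested on simulated data. Alternatives were other tests, scalings, filters, dispersions and thresholds, a replicate block, libraries of 1 sex or of WT alone, near-identical copies summed, and each library left out in turn. Summing near-identical copies without male WT replicate 2 was added after seeing the data.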

Additional observations from a re-analysis of the deposited data

How the results depend on the processing

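With each library left out in turn, the log2 fold change in males ranged from -4.94 to 0.36 for Saa1, -5.21 to 1.30 for Saa2, -1.90 to 0.44 for Saa3, -0.96 to 0.08 for Orm1, -1.88 to 0.76 for Orm2, -1.93 to 1.09 for Orm3, -1.08 to 0.54 for Apcs and -3.74 to 0.96 for Lcn2, and the highest value was in each case that without male WT replicate 2. Saa4 (-2.08 to -1.01) and Hp (-1.11 to -0.06) stayed below 0 throughout. In females the ranges were -0.16 to 2.24 for Saa1, -0.13 to 2.23 for Saa2, -0.29 to 0.33 for Saa3, -0.15 to 0.41 for Saa4, -0.10 to 0.37 for Orm1, -0.02 to 0.78 for Orm2, 0.00 to 0.83 for Orm3, -0.90 to 0.15 for Hp, -0.03 to 0.82 for Apcs and -0.19 to 1.98 for Lcn2, with the lowest value without female NT-KO replicate 1 for every gene other than Saa3. Between the sexes over both genotypes they were -0.71 to 0.46 for Saa3, -0.58 to 0.74 for Orm2 and -1.28 to 1.20 for Lcn2.

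The number of the 10 genes called was 0 in males, 0 in females, 0 for the difference between the sexes, 2 for females against males and 1 for this in WT. The likelihood ratio test called 1 in males, 4 between the sexes and 4 in WT. Of all 13117 genes it called 205, 678 and 1039. DESeq2 called 1 in males, 1 for the difference between the sexes and 3 in WT. Of all 13117 genes it called 218, 62 and 987. With no filter beyond 1 count the numbers were 7, 3, 6, 5 and 5. There 29724 genes were tested, and 667, 172, 552, 1241 and 1736 of them were called, against 2 in males with the filter. Library size without TMM gave 1 between the sexes (648 of all genes). An FDR of at most 0.01 gave 0 between the sexes (309 of all genes) and 0 in WT (159). The WT libraries alone gave 0 in WT (508 of all genes). With 1 library left out they were 0 to 1 in males, 0 to 2 between the sexes and 0 to 3 in WT. The cause of these shifts was not tested. Averaged over both sexes, 0 of the 10 were called under every alternative run.

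Replicate numbers did not pair the samples: deviations from the group means of same-numbered libraries correlated at -0.00665 in males and 0.023 in females. A replicate block gave 3 calls between the sexes in place of 2, the third being Saa1 (-1.96, FDR 0.0443). Of all genes 516 were called there, against 550 without the block. In WT the block gave 2 calls, Saa1 and Saa4, where 456 of all genes were called against 614 without the block. It turned Saa3 in females from -0.01 to 0.01. In males it called 0 of the 10.

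Over all genes, the number called in males was 2, and it was 205 by the likelihood ratio test, 218 by DESeq2, 6 with filterByExpr or robust dispersion, 3 with library size alone, the block or males alone, and 2 to 27 with 1 library left out. In females 1 gene was called, 11 by the likelihood ratio test, 5 by DESeq2, 172 with no filter beyond 1 count, and 0 with the filter on the group mean, the block, the lower FDR or any 1 library left out. For the average over both sexes the main number of 2 became 38, 39 and 205 under the same first 3 alternatives, 3 with robust dispersion, 0 at the lower FDR and 0 to 9 with 1 library left out, and for the difference between the sexes 2 became 46, 62 and 552, and 1 to 7. Between the sexes 550 genes were called, 1241 with no filter beyond 1 count, 309 at the lower FDR, 1028 with no minimum fold change and 365 to 570 with 1 library left out. In WT 614 were called, and 1039, 987 and 1736 under the likelihood ratio test, DESeq2 and no filter, 159 at the lower FDR and 180 to 728 with 1 library left out. Every one of the 10 genes had at least 153 counts in each library, so the spread between replicates limits these comparisons more than depth does.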
